A study of Mus musculus with 60 samples.

Results

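Mast cell genes were followed through the growth of the embryonic mouse jaws. The set holds 7 of the 18193 genes with a single-symbol probe set on the array: Cma1, Mcpt4, Tpsb2, Cpa3, Hdc, Ms4a2 and Fcer1a. They were taken by gene symbol from the platform annotation, and where several probe sets stand for a gene, that of highest average on the 60 arrays is given. The set was chosen by the Cma1 signal, which is higher at embryonic day E14.5 than at E13.5 in both jaws, so the differences between those ages are given as a description, and nothing is read from calls made on them.

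Mast cells arise from blood progenitors, enter connective tissue before birth and mature there under the growth factor Kitl, which acts through the receptor Kit. They store proteases, histamine and heparin-like proteoglycans in granules and release them when the high-affinity receptor for immunoglobulin E, or another receptor, is engaged. In the mouse, mast cells of skin and other connective tissue carry the chymases encoded by Cma1 and Mcpt4, the tryptase encoded by Tpsb2 and the carboxypeptidase encoded by Cpa3. Hdc encodes histidine decarboxylase, which makes histamine. Fcer1a encodes the IgE-binding chain of the high-affinity receptor and Ms4a2 its beta chain.

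RNA came from the lower jaw (mandible) and the upper jaw (maxilla) of C57Bl/6 embryos, a wild-type inbred strain, with no treatment or genetic change named in the labels. Both jaws were divided into distal and proximal pieces on each day from E10.5 to E14.5, with 3 arrays for each of the 20 groups and 3 micrograms of total RNA as the starting amount of the labelling. The labels call the pieces distal and proximal bone. Of 4 measured bone genes, Ibsp, Dmp1 and Phex were at or under the floor defined next in 3 of the 4 groups at E10.5, and Dmp1 and Phex in the distal maxilla, whereas none was at E13.5 or E14.5.

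Values are log2 signals, on which a difference of 1 is a doubling. No background was measured. The floor was set at 4.78, the highest of the arrays' 25th percentiles. A group mean no higher than that is called at the floor, and a difference that includes such a group is at best a lower bound. In all, 87.7% of the 18193 genes had a group mean above the floor, and 5 of the 7 mast cell genes did. Array medians lay between 6.05 and 6.31, and the number of arrays limits the precision. Whether the 3 arrays of a group came from separate embryos is not stated, so p-values measure only the spread between arrays, which may be technical. Titles give 4 batches. The mandible of the last 2 ages makes up batch 1. The maxilla of the last 3 ages shares batch 2 with the E12.5 mandible. Both jaws of E11.5 share batch 3 with the E10.5 mandible, and the E10.5 maxilla is alone in batch 4. Replicate 1 of the distal mandible at E13.5 was high in Cma1, Cpa3 and Hdc, and results that rest on it are given with and without it. In pieces of tissue, fewer mast cells and less RNA in each cell cannot be told apart.

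RefSeq promoter entries were found for 6 of the 7 genes, all but Tpsb2. The stretches before the start sites of both chymases and of Cpa3 are shown because these are the proteases whose signals differed most between groups, and because GATA factors, which bind words around GATA, are known regulators of mast cell genes. Each is written 5′ to 3′ along the gene, on the minus strand of GRCm38.p6, and ends just before the start site, except that the Cpa3 stretch stops where a longer annotated transcript begins. Capitals mark the word AGATAA, the word AGATAG, the word TGATAA or the word TGATAG, on either strand.
Cma1 (chr14:55944676-55944925): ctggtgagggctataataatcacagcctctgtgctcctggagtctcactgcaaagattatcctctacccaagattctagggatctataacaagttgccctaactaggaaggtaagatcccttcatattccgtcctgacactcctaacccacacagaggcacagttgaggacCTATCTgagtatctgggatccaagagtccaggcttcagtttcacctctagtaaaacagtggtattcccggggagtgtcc
Mcpt4 (chr14:56062311-56062560): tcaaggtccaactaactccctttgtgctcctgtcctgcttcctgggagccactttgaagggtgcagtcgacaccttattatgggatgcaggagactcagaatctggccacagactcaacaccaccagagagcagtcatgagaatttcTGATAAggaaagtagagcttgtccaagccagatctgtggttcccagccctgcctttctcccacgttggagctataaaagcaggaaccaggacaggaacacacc
Cpa3 (chr3:20242210-20242431): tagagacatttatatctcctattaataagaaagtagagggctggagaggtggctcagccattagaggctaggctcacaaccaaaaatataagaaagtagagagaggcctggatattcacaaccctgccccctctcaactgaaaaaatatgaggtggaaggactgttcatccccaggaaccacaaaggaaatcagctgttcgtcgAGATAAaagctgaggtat
The match begins 79 bases before the start site in Cma1, 103 in Mcpt4 and 46 in Cpa3. Over 250 bases, Ms4a2 held 3 matches and Fcer1a and Hdc 1 each, and 27.1% of 27025 genes held at least 1 match in a window of that length. The whole Hdc window lay within a longer annotated transcript. So did part of the Ms4a2 window, and only 1 of its matches lay in the 179 bases outside that transcript. A match describes the letters only.

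Cma1, a mast cell chymase, was at or near the floor in every piece from E10.5 to E12.5, where group means ran from 4.26 in the proximal maxilla at E10.5 to 5.21 in the proximal mandible at E12.5. At E13.5 the arrays read 7.63, 6.72 and 6.76 in the distal mandible and 6.29, 6.33 and 6.31 in the proximal mandible. In the maxilla at that age they read 7.87, 7.61 and 7.58 distally and 6.90, 6.78 and 6.83 proximally. All arrays at E13.5 thus lay above all arrays of the earlier ages.

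At E14.5 Cma1 read 10.55, 10.68 and 10.47 in the distal mandible, and from 9.95 in replicate 3 to 10.23 in replicate 1 in the proximal mandible. It read 10.07, 9.98 and 10.12 in the distal maxilla but 7.93, 7.85 and 7.77 in the proximal maxilla, the piece that stood apart. In order of group mean, the distal mandible (10.56 ± 0.11, SD, n = 3) came first, followed by the proximal mandible (10.06 ± 0.15) and the distal maxilla (10.06 ± 0.07), whose arrays overlapped. The proximal maxilla at E14.5 (7.85 ± 0.08) overlapped the distal maxilla at E13.5 (7.69 ± 0.16), and the distal mandible at E13.5 (7.04 ± 0.51) overlapped both pieces of the maxilla of its own age. The proximal mandible at E13.5 (6.31 ± 0.02) was lowest of these groups and overlapped none of them. At these ages jaw and batch cannot be told apart, so any order between the jaws is a description only, here and for the genes below.

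**Figure D1:**
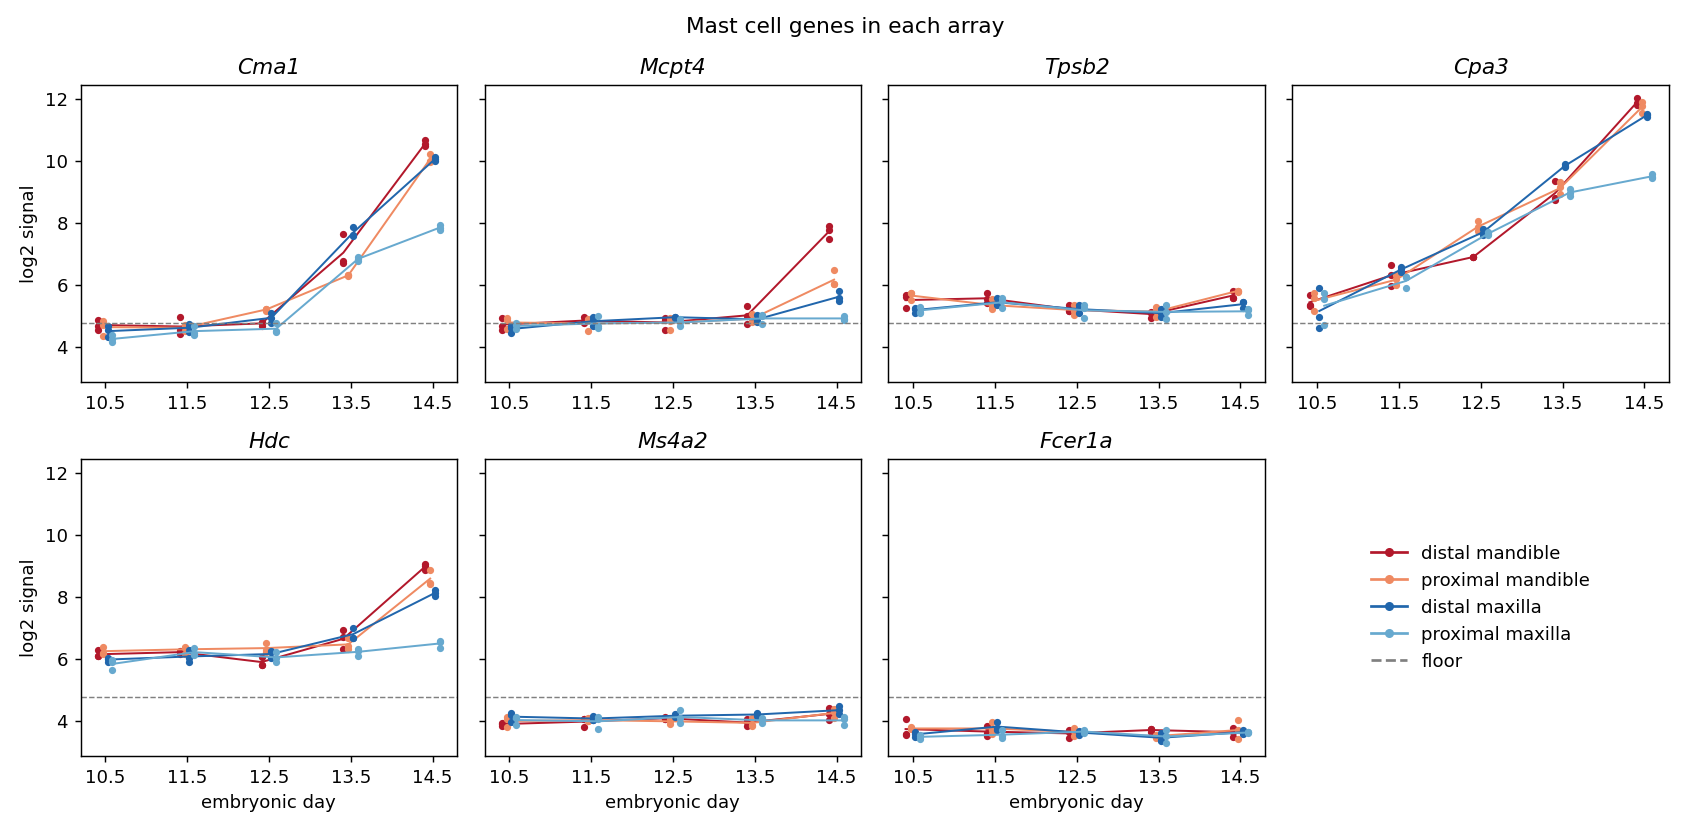
Log2 signal (vertical axis) of the 7 mast cell genes against embryonic day (horizontal axis), with a point for each array, a line through the group means of each piece, and a dashed line at the floor of 4.78. Cma1, Cpa3, Hdc and Mcpt4 are highest at E14.5, with the proximal maxilla (light blue) below the other pieces, while Tpsb2 moves little and Ms4a2 and Fcer1a stay under the floor.

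Cpa3, the granule carboxypeptidase, was above the floor in all 20 groups, and its group mean was higher at each later age in every piece, across batches. It went from 5.44, 5.49, 5.16 and 5.33 at E10.5 (distal and proximal mandible, then distal and proximal maxilla) to 6.90, 7.88, 7.70 and 7.65 at E12.5. At E13.5 the arrays read 9.36, 8.74 and 8.79 in the distal mandible, 9.31, 9.14 and 8.92 in the proximal mandible, 9.81, 9.82 and 9.90 in the distal maxilla, and 9.09, 8.97 and 8.87 in the proximal maxilla. At E14.5 they read 11.85, 12.01 and 11.81, then 11.89, 11.54 and 11.76, then 11.52, 11.41 and 11.49, and last 9.59, 9.47 and 9.44, in the same order of pieces. The proximal maxilla was again the low piece, and its arrays at E14.5 lay under those of the distal maxilla at E13.5.

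Mcpt4, the other chymase, stood clear of the floor only at E14.5, whereas Cma1 did so from E13.5. The highest group mean was 7.73 for Mcpt4 against 10.56 for Cma1. An earlier, weaker Mcpt4 signal could lie at the floor, and a lag behind Cma1 was not tested. Its group means stayed between 4.58 and 5.02 in all pieces up to E13.5, close to the floor. At E14.5 its arrays read 7.91, 7.78 and 7.49 in the distal mandible, 6.02, 6.48 and 6.03 in the proximal mandible, 5.48, 5.80 and 5.57 in the distal maxilla, and 5.0, 4.87 and 4.91 in the proximal maxilla. These 4 groups did not overlap, though the jaws lie in different batches, and the proximal maxilla had the same mean, 4.92, at E13.5 and E14.5.

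Hdc, the enzyme of histamine synthesis, held group means between 5.84 and 6.35 up to E12.5 on its probe set of highest average. At E13.5 its arrays read 6.93, 6.31 and 6.72 in the distal mandible, 6.67, 6.42 and 6.32 in the proximal mandible, 6.69, 7.01 and 6.69 in the distal maxilla, and 6.10, 6.27 and 6.33 in the proximal maxilla. At E14.5 they read 9.05, 9.01 and 8.88, then 8.88, 8.43 and 8.46, then 8.13, 8.23 and 8.03, and last 6.34, 6.56 and 6.59, in the same order. Both pieces of the mandible touched at 8.88, the distal maxilla lay below them and the proximal maxilla far below. The other probe set of Hdc started under the floor in every piece, at 4.36 in the distal mandible at E10.5. At E12.5 it was above the floor, at 4.95 and 5.40 in the distal and proximal mandible and 5.23 and 5.17 in the maxilla. These ages lie in different batches. In the maxilla at E13.5 it stood at 6.28 distally and 5.67 proximally. The flat early course was thus that of the first probe set only. In the distal mandible at E14.5 the other set reached 8.83, against 8.98 on the first.

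Tpsb2, the mast cell tryptase, was above the floor in all 20 groups but moved over a range of only 0.75, from 5.06 in the distal mandible at E13.5 to 5.81 in the proximal mandible at E14.5. Its E10.5 mandible means, 5.51 and 5.66, were nearly as high as those at E14.5. Its second probe set never passed the floor, with group means from 4.0 to 4.61. The receptor chains were at the floor throughout: group means ran from 3.90 to 4.35 for Ms4a2 and from 3.46 to 3.82 for Fcer1a. The other Ms4a2 probe set also stayed under it, from 3.42 to 4.65. The results on the set therefore rest on its proteases and Hdc, since its receptor genes were not shown to be present in any group.

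Between E13.5 and E14.5 in the mandible, averaged over both pieces, Cma1 was 12.4-fold higher (log2 difference 3.64, SE 0.103), Cpa3 6.80-fold (2.77, SE 0.138), Hdc 4.67-fold (2.22, SE 0.090) and Mcpt4 3.95-fold (1.98, SE 0.099). Tpsb2 differed by 0.64 and Ms4a2, all of it under the floor, by 0.30. With limma and a Benjamini-Hochberg adjusted p under 0.05 over all genes, the rule for a call used from here on, 6 of the 7 were called higher, all but Fcer1a (0.07). Of all genes 13.3% were called higher. Since this contrast chose the set, nothing is read from the count.

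In the maxilla the same differences were 1.69 (SE 0.103) for Cma1, 1.08 (SE 0.138) for Cpa3, 0.80 (SE 0.090) for Hdc and 0.37 (SE 0.099) for Mcpt4, and these 4 genes were called higher against 10.3% of all genes. Tpsb2 (0.16), Ms4a2 (0.07) and Fcer1a (0.16) were not. Nothing is read from this count either. With the mean of its probe sets, Tpsb2 differed by 0.33 in the mandible. By piece, the Cma1 difference was 3.52 in the distal and 3.75 in the proximal mandible, 2.37 in the distal maxilla and 1.01 in the proximal maxilla. In the same order Mcpt4 gave 2.70, 1.26, 0.73 and 0.00, and Cpa3 gave 2.93, 2.60, 1.63 and 0.53. Whether genes differed in this spread among pieces was not tested. The arrays of E14.5 lay above those of E13.5 in every piece for Cma1, Cpa3 and Hdc, in all but the proximal maxilla for Mcpt4 and Tpsb2, and overlapped them in every piece for Ms4a2 and Fcer1a. On the other Ms4a2 probe set, under the floor throughout, they lay above in all but the proximal maxilla. Its means at E13.5 and E14.5 were 4.11 and 4.60 in the distal and 4.06 and 4.65 in the proximal mandible. In the maxilla they were 4.10 and 4.50 distally and 3.91 and 3.85 proximally.

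**Figure D2:**
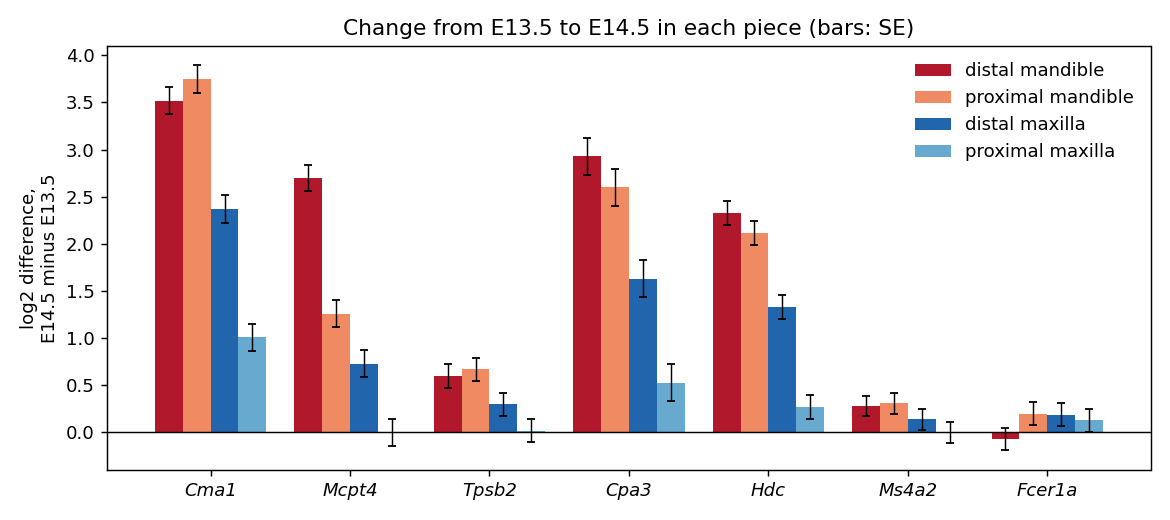
Log2 difference between E14.5 and E13.5 (vertical axis) of each mast cell gene in each piece, as the difference of the means of 3 arrays at each age, with bars of 1 SE from the fit over all arrays. For Cma1, Cpa3, Hdc and Mcpt4 the proximal maxilla (light blue) has the smallest difference, from 1.01 for Cma1 to 0.00 for Mcpt4.

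Whether this change differed between the jaws was tested as a difference of the changes. Both changes had entered the choice of the set. Their difference is made from the same values. Its p-values and count of calls are therefore given as a description, and nothing about the set is read from them. The change was larger in the mandible for 5 of the 7 genes: Cma1 by 1.95 (SE 0.145, adjusted p = 6.41e-15), Cpa3 by 1.69 (SE 0.195, 5.9e-09), Mcpt4 by 1.62 (SE 0.140, 9.85e-13), Hdc by 1.42 (SE 0.127, 2.82e-12) and Tpsb2 by 0.48 (SE 0.123, 0.00783), all with limma. The same call was made in this direction for 3.6% of all genes. The Tpsb2 call was lost when the arrays numbered 2 (0.38, adjusted p = 0.265) or 3 (0.43, 0.0675) were left out of all groups. The ages of each jaw share a batch, but the jaws lie in different batches. An additive batch shift cancels in this difference and a difference in scale would not. Of all calls 58.3% were in this direction, and 37.4% with each array centred on its median.

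Position within a jaw was compared to ask where along its length the genes were higher, a contrast that the choice of the set did not use. In the maxilla at E14.5, 5 of the 7 genes were higher distally against 21.3% of all genes: Cma1 4.61-fold (log2 difference 2.21, SE 0.145, adjusted p = 5.51e-18), Cpa3 3.92-fold (1.97, SE 0.195, 6.79e-12), Hdc 3.10-fold (1.63, SE 0.127, 2.81e-15), Mcpt4 1.62-fold (0.69, SE 0.140, 7.59e-05) and Ms4a2 by 0.33 (SE 0.109, 0.0146). For each of them all 3 distal arrays lay above all 3 proximal ones, as they did for Tpsb2, which was not called. How many of all genes lack overlap was not counted, here or in the other comparisons, so nothing is read from it. Both Ms4a2 groups were under the floor, and its call was lost without the arrays numbered 2 (0.38, adjusted p = 0.0768) or 3 (0.19, 0.342). Its other probe set, with both groups under the floor too, differed by 0.65 (adjusted p = 2.94e-05). Tpsb2 differed by 0.24 (95% confidence interval -0.01 to 0.49, adjusted p = 0.139) and Fcer1a by 0.01 (-0.23 to 0.25). The median difference was 0.69 over the 7 genes and 0.05 over all genes.

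In the mandible at E14.5 Mcpt4, not Cma1, had the largest position difference of the 7. Mcpt4 was 2.93-fold higher distally (1.55, SE 0.140, adjusted p = 1.08e-12), Cma1 1.42-fold (0.51, SE 0.145, 0.00632) and Hdc 1.31-fold (0.39, SE 0.127, 0.0177), which makes 3 of 7 genes against 15% of all genes. Cpa3 differed by 0.16 (95% confidence interval -0.23 to 0.56, adjusted p = 0.605). Without the arrays numbered 2 or 3 only Mcpt4 was called, with Cma1 at 0.42 (adjusted p = 0.162) or 0.50 (0.0715) and Hdc at 0.29 (0.214) or 0.37 (0.118). The second Hdc probe set gave a larger distal excess, 0.85 (adjusted p = 6.68e-06).

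At E13.5 Cma1 was higher distally in both jaws. In the mandible the difference was 0.73 (SE 0.145, adjusted p = 7.94e-05, limma) and it was the only 1 of the 7 genes called higher, against 12.4% of all genes. Without replicate 1 of the distal mandible it fell to 0.43 (adjusted p = 0.0121). Cpa3 there differed by -0.16 (95% confidence interval -0.55 to 0.23) and Hdc by 0.18 (-0.08 to 0.44), and without that array by -0.36 and 0.04. In the maxilla Cma1 (0.85, SE 0.145, adjusted p = 1.16e-05), Cpa3 (0.86, SE 0.195, 0.000829) and Hdc (0.56, SE 0.127, 0.000829) were higher distally, with no overlap of arrays, so 3 of 7 genes against 5.4% of all genes. Of all calls in that comparison 34.4% were higher distally, and 49.3% with arrays centred on their median. Mcpt4, with group means from 4.89 to 5.02, differed by 0.11 in the mandible (-0.04 without replicate 1 of the distal mandible) and -0.03 in the maxilla.

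In the mandible at E12.5 the members that were called were lower distally. Cpa3 read 6.91, 6.91 and 6.90 distally and 7.74, 8.05 and 7.86 proximally, a difference of -0.98 (SE 0.195, adjusted p = 6.63e-05). Hdc differed by -0.45 (SE 0.127, 0.00452), and Cma1, with its distal mean of 4.76 at the floor, differed by -0.45 (SE 0.145, 0.0126). That is 3 of 7 genes lower distally against 17.3% of all genes. Without the arrays numbered 3 only Cpa3 was called. Without those numbered 2, Cma1 was not (-0.50, adjusted p = 0.0656). In the maxilla at E12.5 no member was called (39% of all genes were called in either direction), with Cma1 at 0.34 (adjusted p = 0.0549) and Cpa3 at 0.05. At E10.5 and E11.5 none was called in either jaw by limma, where, of all genes, the mandible gave 19.1% and 8.93% called and the maxilla 20.2% and 34.7%. At an unadjusted p under 0.05 the counts were 1 in the maxilla at E12.5 (Cma1), 1 in the maxilla at E11.5 (Fcer1a, under the floor) and 0 in the other 3. With arrays centred, the share of all calls that were higher distally went from 51.5% to 40.8% in the mandible at E10.5 and from 54.4% to 70% in the maxilla at E11.5.

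**Figure D3:**
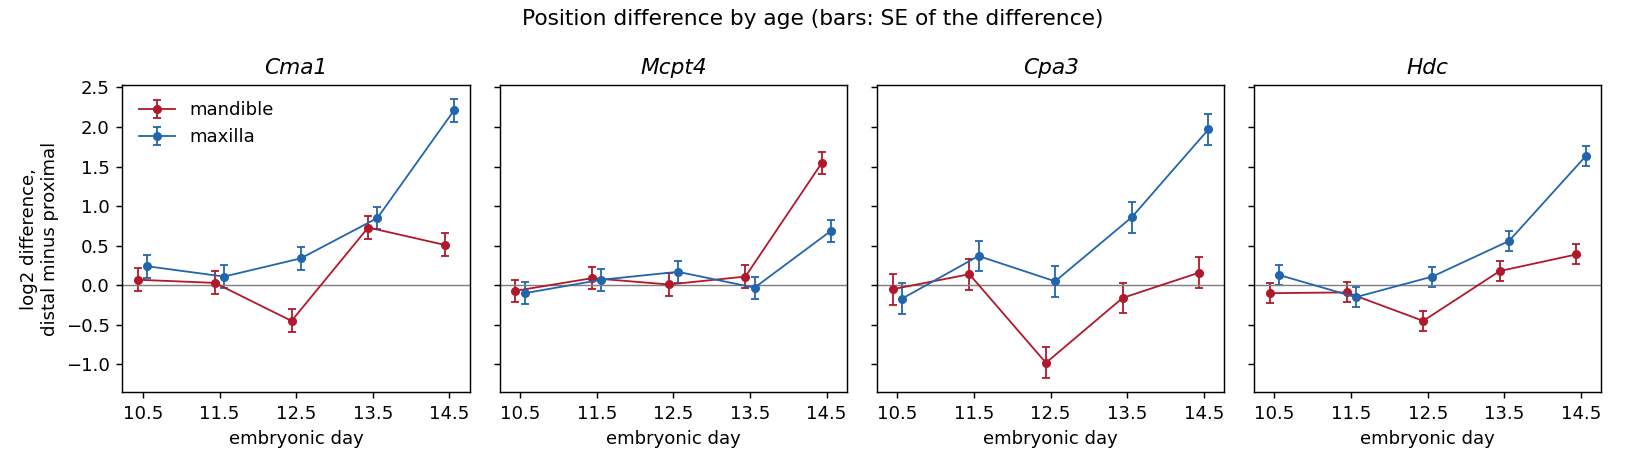
Distal minus proximal log2 difference (vertical axis) of 4 mast cell genes against embryonic day (horizontal axis), for the mandible and the maxilla, each point a difference of means of 3 arrays with a bar of 1 SE. In the maxilla Cma1, Cpa3 and Hdc climb to 2.21, 1.97 and 1.63 at E14.5, and in the mandible the same genes dip below 0 at E12.5.

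Changes of the position difference with age were tested too. From E12.5 to E13.5 it increased in the mandible for Cma1 by 1.18 (SE 0.205, adjusted p = 4.37e-05), Cpa3 by 0.82 (SE 0.276, 0.0378) and Hdc by 0.63 (SE 0.180, 0.0125), 3 of 7 genes against 7.99% of all genes. The ages lie in batches 2 and 1, whose additive shift cancels. Without replicate 1 of the distal mandible at E13.5 only Cma1 was called (0.88, adjusted p = 0.00045), with Cpa3 at 0.62 (0.159) and Hdc at 0.49 (0.0726). The Cpa3 call was also lost without the arrays of any 1 replicate number, and the Hdc call without those numbered 3 (0.39, adjusted p = 0.315) or with only the arrays compared (0.63, 0.0512). In the maxilla, within batch 2, only Cpa3 was called (0.82, SE 0.276, adjusted p = 0.0302, against 7.33% of all genes), and not when the arrays of any 1 replicate number were left out.

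From E13.5 to E14.5 the position difference increased in the maxilla for Cma1 (1.35, SE 0.205, adjusted p = 4.72e-06), Cpa3 (1.11, SE 0.276, 0.00648), Hdc (1.07, SE 0.180, 3.38e-05) and Mcpt4 (0.73, SE 0.198, 0.0146), 4 of 7 genes against 4.08% of all genes. Over all genes 742 calls were increases and 548 decreases, and 576 and 693 with quantile normalization repeated. With the arrays numbered 1 or 2 left out, 2 of them were called, Cma1 and Hdc, and without those numbered 3 the Mcpt4 call was lost (0.67, adjusted p = 0.138). In the mandible only Mcpt4 was called (1.44, SE 0.198, adjusted p = 1.74e-06), against 1.29% of all genes, and Cma1 gave -0.23 (95% confidence interval -0.64 to 0.19), or 0.07 without replicate 1 of the distal mandible at E13.5. Cpa3 gave 0.32 and Hdc 0.21, or 0.52 and 0.35 without it.

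Cpa3 had risen before the other members were called, with 1 probe set taken for each gene. It rose in the mandible from E10.5 to E11.5 by 0.77 (SE 0.138, adjusted p = 5.58e-06), with both pieces free of overlap, and no other member of the 7 was called higher, against 27.7% of all genes. Of all calls 62.6% were higher at E11.5, and 37.7% with arrays centred on their median. In the maxilla from E12.5 to E13.5, Cma1, from a mean at the floor in the proximal piece, rose 5.65-fold (2.5, SE 0.103, adjusted p = 2.91e-25), Cpa3 3.33-fold (1.73, SE 0.138, 6.94e-15) and Hdc 1.33-fold (0.41, SE 0.090, 0.000186), 3 of 7 genes against 24.5% of all genes. This comparison shares its E13.5 arrays with the contrast that chose the set. The share of all calls that were higher at E13.5 was 55.5%, and 33.7% with arrays centred. Mcpt4 (0.03), Tpsb2 (-0.09), Ms4a2 (-0.03) and Fcer1a (-0.17) did not pass the test. In the same comparison 12 of 13 macrophage genes, 10 of 10 epithelial genes and 4 of 4 bone genes were higher, and from E10.5 to E11.5 in the mandible 11 macrophage genes were. Their part in the Cma1 and Cpa3 results was not tested.

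The jaws could be compared within a batch at E11.5 and E12.5 only. No member was called by limma at either age, where 33.5% and 41.3% of all genes were. At an unadjusted p under 0.05 the counts were 0 at E11.5 and 2 at E12.5. The share of all calls that were higher in the mandible at E11.5 was 63.4%, and 53.2% with arrays centred. At E12.5 Cma1 differed by 0.22 (95% confidence interval 0.01 to 0.42, adjusted p = 0.085) between mandible and maxilla and Cpa3 by -0.28 (-0.56 to -0.00, 0.103). At E13.5 and E14.5 jaw and batch cannot be told apart.

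Genes beyond the set were counted in lists. At E14.5, 21.3% of all genes were called higher and 12.3% lower distally in the maxilla, and 15% and 11.8% in the mandible, where the median difference over all genes was 0.01. Among 11 other granule genes in the maxilla at E14.5, 4 were higher distally: Srgn, the core protein of granule proteoglycan (10.07 against 8.86, difference 1.21, adjusted p = 1.67e-06), the protease Mcpt2 (1.07, 1.2e-06), the tryptase Tpsg1 (0.44, 0.00462) and the heparin enzyme Ndst2 (0.31, 0.000119). The median of the 11 was 0.22, and the proximal maxilla mean of Mcpt2, 4.43, was under the floor. In the mandible, with a median of 0.27, 3 were higher distally, Mcpt2 (8.84 against 5.55, difference 3.29, adjusted p = 3.52e-21), Mcpt1 (1.12, 1.16e-09) and Gzmb (0.62, 4.42e-05), and Lamp1 was lower (-0.14). Mcpt1 stood at 4.79 in the distal mandible, barely above the floor, and at 3.68 in the proximal mandible, under it. The Mcpt2 difference, 9.76-fold, exceeded that of any of the 7 genes between these pieces.

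Of 15 receptor and signalling genes 6 were higher distally in the maxilla, among them Csf2rb, the shared beta chain of the IL-3 receptor family (1.05, adjusted p = 0.000743), and Fcer1g, the gamma chain of Fc receptors (0.42, 0.00353). Kit was lower there (-0.26, 0.0371), and the median of the 15 was 0.17. In the mandible 2 were lower, Enpp3 (-0.52) and Siglecf (-0.32, under the floor), Kit differed by -0.06, and the median was -0.03. Mrgprb1, Cd200r3 and Siglecf were at the floor in every group. Of 6 lipid mediator enzymes, 5 were higher distally in the maxilla (median 0.37) and 3 in the mandible (median 0.25), including Hpgds, which makes prostaglandin D2 (0.44 and 0.47), and Pla2g4a (0.37 and 0.57).

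Of 9 transcription factors known in mast cells, 5 were higher distally in the maxilla (median 0.40), with Cebpa (1.12), Gata2 (0.92) and Mitf (0.63) furthest. In the mandible Runx1 (1.32) and Cebpa (0.33) were higher and Gata2 was lower (-0.57, adjusted p = 0.000172), with a median of -0.13. The difference between the jaws in Gata2 was not tested. Of 9 growth factors, Kitl was higher in the distal maxilla (0.39) and lower in the distal mandible (-0.26, adjusted p = 0.0236), Il33 was lower in the distal maxilla (-1.48), and in the mandible Il4 was higher (0.43) and Cxcl12 lower (-0.45). Their medians were 0.06 in the maxilla and -0.08 in the mandible. Between E13.5 and E14.5 Kitl was higher by 0.35 in the mandible and 0.64 in the maxilla and Kit by 0.45 and 0.42, against 3.64 and 1.69 for Cma1.

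Markers of other cells moved with some of these differences, and their part in them was not tested. Of 13 macrophage genes 6 were higher and 0 lower in the distal maxilla at E14.5 (median 0.30), and their summed log2 level ran from 13.14 to 13.20 over the distal arrays and from 12.81 to 12.91 over the proximal ones. Of 9 general leukocyte genes 6 were higher and 1, Coro1a, lower (median 0.55, summed level 11.51 to 11.63 against 11.36 to 11.40). In the mandible at E14.5, where Cma1, Mcpt4 and Hdc were higher distally, 5 of the 13 macrophage genes were lower and none higher (12.83 to 13.07 against 13.21 to 13.29), as was 1 of the 9 leukocyte genes (11.38 to 11.40 against 11.54 to 11.66). At E12.5 in the mandible, where Cma1, Cpa3 and Hdc were lower distally, 12 macrophage genes were lower and 1 higher (median -1.01, summed level 11.32 to 11.37 against 12.24 to 12.30), and 5 of the 9 leukocyte genes were lower. In that comparison 17.3% of all genes were called lower. At E13.5 in the mandible, where Cma1 was higher distally, 11 macrophage genes were lower and 1 higher, and 9 of 10 epithelial genes were higher. Of all 18193 genes, 2346 were called lower and 2263 (12.4%) higher in that comparison.

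Surface epithelium moved with position in both jaws at E14.5. Of 10 epithelial genes 9 were higher distally in the maxilla (median 1.34, summed level 14.35 to 14.40 against 13.08 to 13.12), and 9 were higher and 1 lower in the mandible (median 1.05, 15.50 to 15.67 against 14.53 to 14.88). Krt1, a keratin of differentiating skin, was 3.09 higher in the distal maxilla. Nerve genes went the other way, with 6 of 6 lower in the distal maxilla (median -4.09, summed level 11.14 to 11.15 against 15.08 to 15.15) and 4 of 6 lower in the distal mandible (median -1.31, 10.94 to 11.01 against 12.22 to 12.66). Bone genes were higher in the distal maxilla, 4 of 4 (median 1.70), and 1 of 4 was lower in the distal mandible. At E13.5 in the maxilla, 9 of the 10 epithelial genes were higher distally and all 6 nerve genes lower, while 0 macrophage genes were higher and 1 lower. Of all 18193 genes, 982 (5.4%) were called higher and 1876 lower in that comparison.

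The remaining lists in the maxilla at E14.5 gave, as called higher and lower distally, 3 and 0 of 12 eosinophil and neutrophil genes, 2 and 0 of 9 lymphocyte genes, 0 and 1 of 8 erythroid genes, 0 and 1 of 7 platelet genes, 2 and 1 of 10 endothelial genes, 0 and 1 of 6 melanocyte genes, 3 and 1 of 10 fibroblast genes and 0 and 1 of 9 muscle genes. In the mandible they gave 0 and 7, 0 and 0, 1 and 0, 0 and 0, 0 and 9, 0 and 5, 1 and 2, and 0 and 8, in that order. Their medians ran from -0.48 for muscle to 0.22 for fibroblast genes in the maxilla and from -0.88 for muscle to -0.02 for erythroid genes in the mandible. Basophils share several genes with mast cells. Of 4 basophil genes (median 0.16 in the maxilla and 0.07 in the mandible) Mcpt8, a basophil protease, was higher distally in both jaws (0.75 in the maxilla and 0.66 in the mandible) and reached 5.75 in the distal mandible at E14.5, while Cd200r3 and Cd69 were at the floor in every group. The summed level of the 4 ran from 7.05 to 7.20 in the distal mandible, 6.81 to 6.91 in the proximal mandible, 6.98 to 7.13 in the distal maxilla and 6.62 to 6.73 in the proximal maxilla at E14.5.

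Cma1 and Mcpt4 lie in a cluster of granule protease genes on chromosome 14, of which 15 protein-coding genes run from Cma1 to Gzmb in RefSeq order and 13 were measured. Beside Cma1, in the distal mandible Mcpt2 stood at 8.84 at E14.5 against 4.96 at E13.5, Mcpt4 at 7.73 against 5.02, Mcpt8 at 5.75 against 4.81 and Mcpt1 at 4.79 against 3.65. Ctsg was 4.84 against 4.79. The granzymes Gzme, Gzmd, Gzmg, Gzmn, Gzmf and Gzmc were at the floor in all groups, and Gzmb, the last gene, was 6.26 against 6.15. Mcpt1 passed the floor in this group alone.

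**Figure D4:**
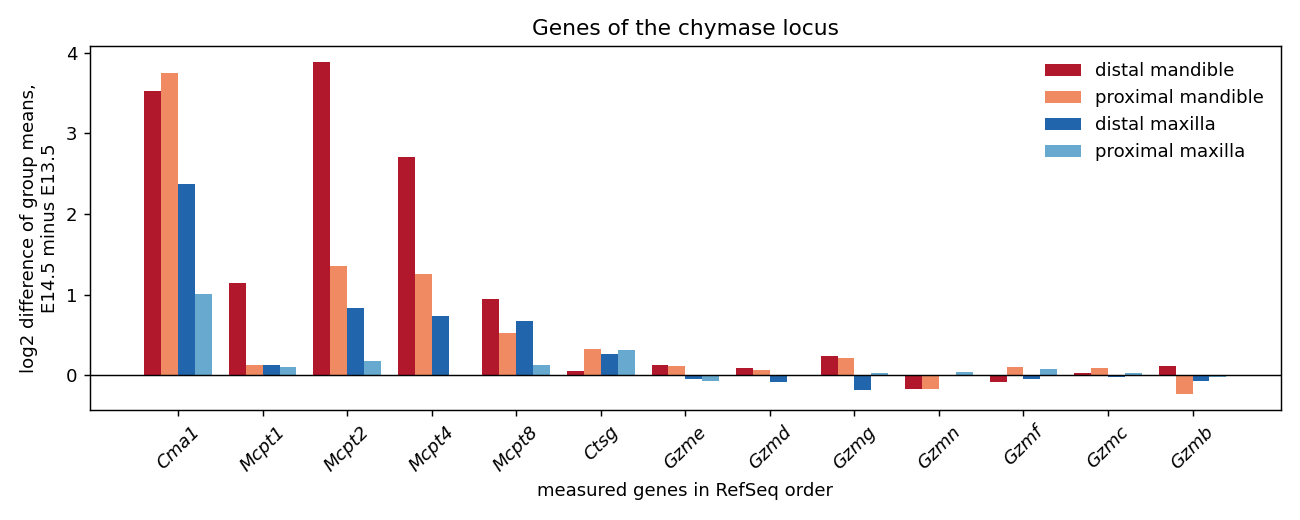
Difference of group means between E14.5 and E13.5 on the log2 scale (vertical axis) for the measured genes from Cma1 to Gzmb in RefSeq order (horizontal axis), with a bar for each piece, each from 3 arrays an age. Bars above 0.5 are found among Cma1, Mcpt1, Mcpt2, Mcpt4 and Mcpt8, and the distal mandible bar of Mcpt2 is the tallest, from 4.96 to 8.84.

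Likeness to Cma1 was measured as Pearson's r of the 20 group means, which share age, piece and batch, among 13079 genes with a highest group mean of at least 6 that are neither predicted gene models nor in the set. The closest genes outside the set were Dmp1 of bone (0.972), Clec4a3 (0.968), Dmkn of differentiating skin (0.968), Cebpb (0.962), Ncf1 (0.960), Fgfbp1 (0.960), Krtdap (0.959), Serpinb7 (0.958), Lpxn (0.958) and Nupr1 (0.955). Within the set Cpa3 came closest (0.949, rank 16), then Hdc (0.923, rank 59) and Mcpt4 (0.798, rank 766), so that 15 genes outside the set ranked above every member. Ms4a2 (0.622), Tpsb2 (0.241) and Fcer1a (-0.071) were less like Cma1.

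Arrays of a group offered a measure that the choice did not use, the deviation of each array from its group mean. Over 60 arrays, deviations of Cma1 and Cpa3 correlated (Pearson's r 0.53, permutation p = 0.0022, 0.013 adjusted over 6 pairs; Spearman's rho 0.50, permutation p = 0.002, adjusted 0.012). Without the 2 arrays farthest in Cma1, replicate 1 of the distal mandible at E13.5 and at E11.5, r was 0.44 and no longer passed the threshold (adjusted permutation p = 0.099). Within batches r was 0.83, -0.01, 0.72 and 0.54 for batches 1 to 4, and no within-batch value passed the threshold. For the other members r was 0.31 for Hdc (adjusted permutation p = 0.35), 0.16 for Mcpt4 (0.57), -0.13 for Tpsb2 (0.55), -0.02 for Ms4a2 (0.9) and -0.28 for Fcer1a (0.09).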

How the data were processed

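RNA of 60 jaw samples was labelled and hybridised to Affymetrix mouse genome arrays. The deposited values are log2 signals made with RMA, per the submitters' processing notes. RMA includes background correction and quantile normalization of arrays. Its version, and whether all arrays were normalized together, are not given in the sources used here. The values were used as deposited. Of 45101 probe sets, 64 controls were left out, and 34945 had a single symbol in the platform annotation. They gave 18193 genes, each by its probe set of highest mean.

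A limma 3.58.1 fit (R 4.3.3) with a mean for each of 20 groups and 40 residual degrees of freedom gave contrasts, with 2-sided tests from eBayes with trend. P-values were adjusted by Benjamini-Hochberg over all genes and called under 0.05. The fit was tested on simulated data. Correlations used 100000 permutations within groups. The 7 genes, the 19 other lists and the rule for named genes were chosen with earlier results of these data known. Named are the 7 genes, in each list up to 4 called members of largest difference (or highest level where few were called), and the 10 genes most like Cma1. Beyond that rule, genes of the chymase cluster were named by position, and Kit, Cd69, Cd200r3 and Mrgprb1 after their values were seen. Comparisons of position at E10.5 to E12.5 and of its change from E12.5 to E13.5 were added after values were seen. Same-numbered distal and proximal arrays deviated together (r over 0.1) in 9 of 30 pairs, so numbers were not taken as pairs.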

Additional observations from a re-analysis of the deposited data

Results flagged for a closer look

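Differences between groups in the size of an effect were tested for all 7 genes in each comparison named here, and 14 passed. Over all genes, the share called in the same direction ran from 1.29% to 7.99% by comparison. Those between the jaws are made from the changes that chose the set, with the jaws in different batches, and are a description only. Those from E12.5 to E13.5 were added after values were seen. Several calls were lost when arrays were left out, as given above. Mcpt4 lay close to the floor at E13.5 in all pieces, which limits its values here. Between the jaws, the log2 change from E13.5 to E14.5 was larger in the mandible than in the maxilla by 1.95 for Cma1, 1.69 for Cpa3, 1.62 for Mcpt4, 1.42 for Hdc and 0.48 for Tpsb2. Between these ages the distal minus proximal difference increased by 1.35 for Cma1, 1.11 for Cpa3, 1.07 for Hdc and 0.73 for Mcpt4 in the maxilla and by 1.44 for Mcpt4 in the mandible. From E12.5 to E13.5 it increased by 1.18 for Cma1, 0.82 for Cpa3 and 0.63 for Hdc in the mandible and by 0.82 for Cpa3 in the maxilla.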

How the results depend on the processing

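Alternatives were a repeated quantile normalization, centring of arrays on their median, probe sets of a gene averaged, dim genes left out, only the arrays compared, a replicate block, no trend of the spread, and each replicate number left out of all groups; leaving out replicate 1 of the distal mandible at E13.5 and taking each probe set alone were chosen after seeing the data. Of 273 recomputed counts of calls and correlations, 241 kept their call or stayed within 1.5 times. Leaving out replicate numbers gave counts of 1 to 3 for position in the mandible at E12.5, 1 to 3 in the mandible at E14.5, 0 to 1 in the maxilla at E12.5, and for the change of position 2 to 3 in the maxilla to E14.5, 1 to 2 in the mandible to E13.5 and 0 to 0 in the maxilla to E13.5. For position in the maxilla at E11.5, 1 gene was called in place of 0 with centring (Fcer1a) and with only the arrays compared (Cpa3). At E12.5 it was 1 in place of 0 with centring, with dim genes left out, with only the arrays compared and without that distal mandible array, each time Cma1. Between the jaws at E12.5 it was 2 with only the arrays compared and 1 without that array. For the mandible at E11.5 it was 2 with quantile normalization and with centring, Tpsb2 being lower. The change of position to E13.5 gave 1 in the mandible without that array, and 2 in the maxilla with quantile normalization, the mean of probe sets, only the arrays compared, or without that array. The replicate block changed 2 counts, to 1 for position in the maxilla at E12.5 and to 1 between the jaws at E12.5, and no other call count; the numbers are not shown to pair the arrays. Ms4a2 in the maxilla at E13.5 against E12.5 reversed to 0.15 with the mean of probe sets. The Cma1 and Cpa3 correlation was absent in batch 2 (-0.01) and was 0.44 without 2 arrays, 0.83 in batch 1, 0.72 in batch 3 and 0.54 in batch 4. The cause was not tested. Signals near the floor limit Mcpt4 before E14.5, Ms4a2 and Fcer1a.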
